A study of Rattus norvegicus with 6 samples.

Results

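The genes described here encode the cofilin branch of actin turnover and the profilins. They were chosen by gene symbol and role, by a rule that uses no measured value, as the cofilins (Cfl1 and Cfl2), destrin (Dstn), the LIM kinases (Limk1 and Limk2), the slingshot phosphatases (Ssh1, Ssh2 and Ssh3) and the profilins (Pfn1 and Pfn2). The choice was made with earlier results of these data known. All 10 had a row among the 14475 genes of the count table. RNA was sequenced from vascular smooth muscle (VSM) cells cultured from soleus feed arteries (SFA), the vessels that supply the soleus muscle, of male F344 (Fischer) rats aged 4 months (young, n = 3) or 24 months (old, n = 3). All cells were grown in medium with fetal bovine serum, and each library is 1 culture from 1 rat, so the values describe cultured cells and not the vessel wall. The comparison asks whether the RNA of the proteins that disassemble and resupply actin filaments differs with the age of the animal.

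Cofilin and destrin bind actin filaments, sever them and speed the loss of subunits, which frees actin for new filaments. LIM kinases switch cofilin off by phosphorylating a serine near its N terminus, and slingshot phosphatases remove that phosphate. Profilin binds the freed actin monomers, exchanges their nucleotide and delivers them to formins and Ena/VASP proteins for renewed assembly. In vascular smooth muscle this cycle sets the balance of monomeric and filamentous actin and contributes to force and to the myogenic response. RNA counts measure neither the phosphorylation of cofilin nor the activity of any of these enzymes.

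The 3 filament-disassembling genes and Pfn1 had lower mean levels in old VSM cells, Ssh2 had a higher one, and the other 5 genes had nearly equal means. Cfl2 was 2.06-fold, Dstn 1.96-fold, Cfl1 1.48-fold and Pfn1 1.45-fold lower in old, and Ssh2 was 1.69-fold higher. None of the 10 genes passed edgeR's quasi-likelihood test with Benjamini-Hochberg adjustment over all genes at the thresholds used here, an adjusted p under 0.05 together with a log2 fold change of 1 or more in either direction, and 0.00691% of all genes (1 gene) passed them. The lowest adjusted p among them was 0.0636, for Cfl2. At an unadjusted p under 0.05 in the same test there were 5 of the 10 genes, 4 lower and 1 higher, where 22.6% of all genes met that rule, 11.5% lower and 11.2% higher. DESeq2's adjusted p was under 0.05 for 4 of the 10 at any fold, 3 lower and 1 higher. By that rule 6.75% of the genes it tested were lower and 5.71% higher. With the fold threshold added, DESeq2 called 1 of the 10, Cfl2, and 5.68% of the genes it tested (326 higher and 479 lower). The paper reports the same numbers of genes. For 4 of the 10 genes, 3 lower and 1 higher, the old and the young libraries did not overlap. Of all genes, 29.2% were separated in this way, 14.7% lower and 14.5% higher. The median log2 fold change of the 10 genes was -0.02, beside 0.02 for all genes. By role it was -0.97 for the cofilins and destrin, 0.13 for the LIM kinases, 0.07 for the slingshots and -0.21 for the profilins.

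The promoters of the 5 genes with an unadjusted p under 0.05 are printed here so that the stretch upstream of each gene can be read beside its values. Each is the 250 bases before the RefSeq transcription start in assembly GRCr8, given 5′ to 3′ on the strand of the gene. The reads were aligned to the older assembly Rnor 6.0, so these positions belong to GRCr8 and not to the counts. Capitals mark the GC box (GGGCGG) and, in Pfn1, the TEAD motif (GGAATG), each searched on both strands.
Cfl1, GRCr8 chr1:212226874-212227123, plus strand: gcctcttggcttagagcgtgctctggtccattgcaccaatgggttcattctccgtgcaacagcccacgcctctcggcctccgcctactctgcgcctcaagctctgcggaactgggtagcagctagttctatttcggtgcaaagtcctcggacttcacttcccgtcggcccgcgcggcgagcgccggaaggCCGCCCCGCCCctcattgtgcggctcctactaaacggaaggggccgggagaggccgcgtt
Cfl2, GRCr8 chr6:78094889-78095138, minus strand: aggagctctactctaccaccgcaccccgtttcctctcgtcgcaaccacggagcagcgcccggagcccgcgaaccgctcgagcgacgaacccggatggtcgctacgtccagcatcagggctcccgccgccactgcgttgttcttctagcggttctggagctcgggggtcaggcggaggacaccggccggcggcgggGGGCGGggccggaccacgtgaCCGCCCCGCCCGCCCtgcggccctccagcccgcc
Dstn, GRCr8 chr3:151737789-151738038, plus strand: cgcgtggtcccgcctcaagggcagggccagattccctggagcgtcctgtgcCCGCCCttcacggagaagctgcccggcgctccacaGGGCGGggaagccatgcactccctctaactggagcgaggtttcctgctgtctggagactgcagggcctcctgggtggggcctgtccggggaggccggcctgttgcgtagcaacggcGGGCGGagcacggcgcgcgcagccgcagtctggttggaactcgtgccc
Pfn1, GRCr8 chr10:55866588-55866837, minus strand: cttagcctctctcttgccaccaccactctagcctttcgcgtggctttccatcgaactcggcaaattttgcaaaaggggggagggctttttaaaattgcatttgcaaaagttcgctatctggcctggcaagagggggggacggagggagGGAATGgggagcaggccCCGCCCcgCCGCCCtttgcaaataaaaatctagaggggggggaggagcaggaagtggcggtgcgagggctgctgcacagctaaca
Ssh2, GRCr8 chr10:62695520-62695769, plus strand: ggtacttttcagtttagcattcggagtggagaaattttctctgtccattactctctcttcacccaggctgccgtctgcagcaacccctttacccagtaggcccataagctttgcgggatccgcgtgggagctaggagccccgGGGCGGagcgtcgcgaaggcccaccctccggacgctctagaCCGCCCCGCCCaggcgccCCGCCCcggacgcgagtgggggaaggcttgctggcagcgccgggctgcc

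All 10 genes had an entry in the RefSeq promoter table, and each of the 10 promoters held at least 1 GC box, the binding sequence of Sp1. Of the 12022 promoters whose symbols were among the tested genes, 55.9% held one within the same 250 bases. Some neighboring GC boxes overlap in Cfl1, Cfl2 and Ssh2, and each was counted. The GC box occurred in genes whose means were lower in old, such as Cfl2 with 4, and in genes with nearly equal means, such as Limk1 with 5. The TEAD motif was found in 1 of the 10 promoters, that of Pfn1, and in 10.02% of the promoters of tested genes. No CArG box, the element bound by serum response factor, was found in any of the 10 promoters without a mismatch, and 1.23% of the promoters of tested genes held one. Allowing 1 mismatch, 1 promoter (Ssh3) matched, compared with 15.2% of the promoters of tested genes. The sequence TATAAA of the TATA box was in none of the 10 and in 6.67% of the promoters of tested genes. The motifs were not tied to any measurement of factor binding, and elements outside these 250 bases were not searched.

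The count table gives unnormalized gene counts, made by the authors with STAR and featureCounts, with totals from 44235674 to 59700887 per library. Counts of the 10 genes ranged from 491 (Limk1) to 71815 (Cfl1) in a library. Values are given as CPM, counts scaled to a common library size with TMM factors, which do not correct for gene length and are therefore compared between libraries and not between genes. Markers of the labelled cell type were checked. All 8 VSM markers were counted in each library. Their summed levels ran from 11207 to 20995 CPM in young and from 3448 to 5562 CPM in old. Des (desmin) was low at both ages, with means of 1.98 CPM in young and 1.84 CPM in old. Myocd (myocardin) had means of 60.5 CPM in young and 7.22 CPM in old. Acta2 (SM α-actin) was at 7646 ± 2705 CPM (mean ± SD, n = 3) in young cells and 1583 ± 556 CPM (n = 3) in old cells. For 7 of the 8 markers the old libraries lay below all young ones, as for 14.7% of all genes. Myh11 (smooth muscle myosin heavy chain), Tagln (transgelin) and Cnn1 (calponin) had log2 fold changes of -3.08, -1.54 and -2.56 (adjusted p = 0.0648, 0.0697 and 0.0561 from edgeR). Fewer VSM cells in a culture and less of these RNAs per cell cannot be told apart in bulk RNA. The 8 fibroblast markers summed to 678 to 1097 CPM in young and 1088 to 2028 CPM in old. Of them, 7 had higher means in old, and the median log2 fold change of the 8 was 1.40. The lower one was Mfap5, the marker with the highest mean in both groups (607 CPM in young and 544 CPM in old), so the sum differed less than most single markers. For 3 of the 8, all old libraries lay above the young ones, as for 14.5% of all genes. The 8 proliferation markers summed to 446 to 701 CPM in young, 505 CPM in old replicate 1, and 177 and 146 CPM in old replicates 2 and 3. Of the markers of other cells, 5 of 8 endothelial markers had a row and summed to 10.9 to 17.1 CPM in young and 13.6 to 20.0 CPM in old, and 4 of 10 skeletal muscle markers summed to 173 to 390 CPM in young and 35.9 to 66.6 CPM in old. Of these 4, 3 had lower means in old and Tnnt3 a higher one (10.7 CPM in young and 20.2 CPM in old). Acta1, among the lower ones, is also part of the actin sum given further below. The 3 of 7 macrophage markers with a row summed to 5.13 to 16.0 CPM in young and 10.4 to 16.8 CPM in old, and the 4 of 7 Schwann cell markers to 13.7 to 75.7 CPM in young and 55.1 to 86.6 CPM in old. No marker with a row was at 0 in any library.

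The cofilins and destrin had lower values in every old library than in any young one. Cfl2 (ENSRNOG00000045892), the muscle-type cofilin, had 316, 311 and 374 CPM in young replicates 1, 2 and 3 and 203, 147 and 136 CPM in old replicates 1, 2 and 3. The old libraries all lay below the young ones, with old replicate 1 closest to them. The mean ± SD (n = 3 each) was 334 ± 35.0 CPM in young and 162 ± 35.9 CPM in old, a log2 fold change of -1.04 ± 0.18 (SE; edgeR adjusted p = 0.0636). Of all genes, 5.87% had a lower log2 fold change. DESeq2's Wald test gave an adjusted p of 2.20e-05 and called Cfl2, as it did 5.68% of the genes it tested, and limma-voom gave an adjusted p of 0.0617.

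Destrin, also named actin depolymerizing factor, is the relative of cofilin that favors subunit loss most strongly. Dstn (ENSRNOG00000005924) had 601, 738 and 907 CPM in young, with 497, 324 and 325 CPM in old. The groups did not overlap, but the lowest young library and the highest old library, both of replicate 1, were closer to each other than the young libraries among themselves. The mean ± SD (n = 3 each) was 749 ± 153 CPM in young and 382 ± 99.2 CPM in old, a log2 fold change of -0.97 ± 0.24 (SE; edgeR adjusted p = 0.105). The DESeq2 adjusted p was 0.00307, with a fold change short of the threshold.

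Cfl1 (ENSRNOG00000020660), the cofilin of non-muscle cells, had 1189, 1194 and 1361 CPM in the young libraries. In the old libraries it had 1062, 744 and 724 CPM. All old values were below the young ones, and old replicate 1 stood apart from the other old libraries on the side of the young group. The log2 fold change was -0.57 ± 0.19 (SE; edgeR adjusted p = 0.164), and the DESeq2 adjusted p was 0.0393. Processed copies of Cfl1 elsewhere in the genome can share its reads, and how the counting treated reads with several matches is not given in the sources used here. Summed over Cfl1, Cfl2 and Dstn, the young libraries held 2106, 2242 and 2642 CPM and the old libraries 1762, 1215 and 1186 CPM. Among the old libraries the first replicate was highest in this sum, in Cfl1, Cfl2 and Dstn alone, and in the summed proliferation and VSM markers, and the part of those markers in the cofilin values was not tested.

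**Figure D1:**
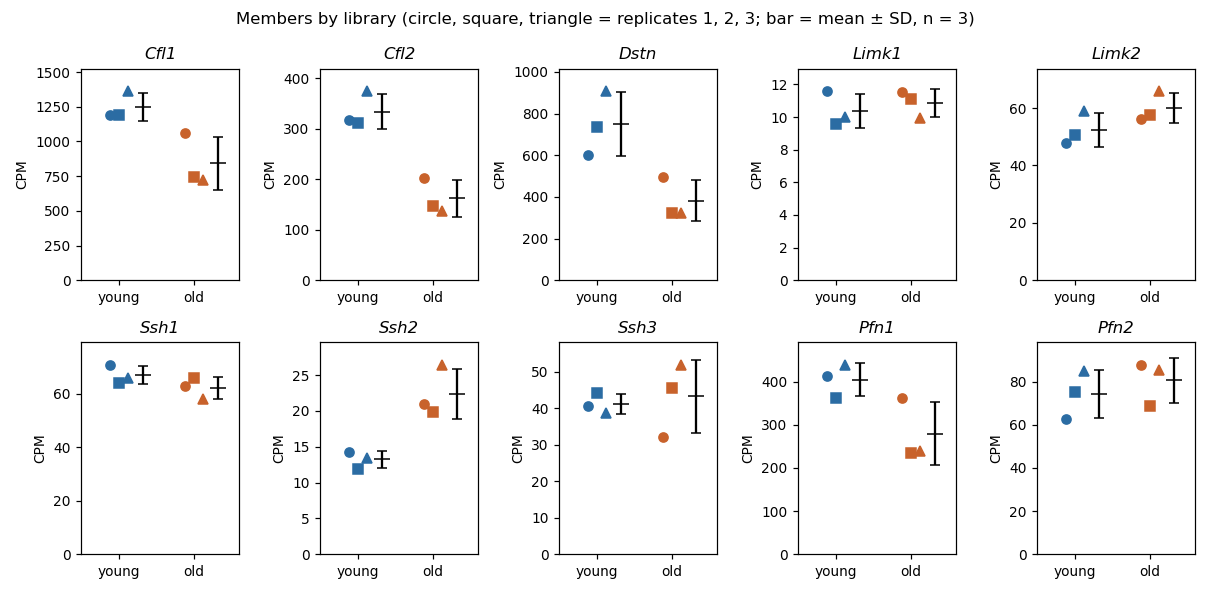
CPM (TMM-scaled counts) of the 10 genes in each library, young in blue and old in orange, with the replicate number as symbol and the mean ± SD (n = 3) as a black bar on axes that start at 0. Cfl1, Cfl2 and Dstn have all old libraries below the young ones, Ssh2 has all old libraries above them, and the groups of the other 6 genes overlap.

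Within the family the difference in level was uneven. The ratio of Cfl2 to Cfl1 counts in the same library, which needs no scaling between libraries, was 0.266, 0.260 and 0.275 in young and 0.191, 0.197 and 0.188 in old. This was the tightest of the ratios, with an SD of 0.04 in young and 0.03 in old on the log2 scale against a difference of -0.47. Old replicate 1, which lay near the young libraries for the level of Cfl1, did not do so for this ratio. The ratio of Dstn to Cfl1 counts was 0.505, 0.618 and 0.666 in young and 0.468, 0.436 and 0.449 in old, a log2 difference of -0.39. An exact permutation test (two-sided) gave p = 0.1 for each, the smallest that 3 against 3 libraries allow, and p = 0.14 adjusted over the 7 ratios examined. Neither ratio is corrected for gene length, so neither gives the molar proportion of the proteins or RNAs.

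The kinases that switch cofilin off had nearly equal RNA levels at both ages. Limk1 (ENSRNOG00000001470) had 11.6, 9.56 and 9.99 CPM in young and 11.6, 11.1 and 9.94 CPM in old. The groups covered nearly the same range, and the log2 fold change was 0.07 ± 0.13 (SE; edgeR adjusted p = 0.783). Limk2 (ENSRNOG00000019000), the second LIM kinase, had 47.7, 50.4 and 58.9 CPM in young and 56.3, 57.4 and 65.8 CPM in old. The young replicate 3 library lay among the old ones, and the log2 fold change was 0.19 ± 0.12 (SE; edgeR adjusted p = 0.359). The ratio of Limk2 to Limk1 counts ranged from 4.12 to 5.90 in young and from 4.87 to 6.62 in old (exact permutation test, p = 0.6, adjusted p = 0.6). Both log2 fold changes were smaller than 2 standard errors.

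Among the phosphatases that switch cofilin on again, Ssh2 stood apart. Ssh2 (ENSRNOG00000014285) had 14.3, 11.95 and 13.5 CPM in young, with 20.9, 19.9 and 26.4 CPM in old. Every old library was above every young one, and here old replicate 1 lay within the old group. The mean ± SD (n = 3 each) was 13.2 ± 1.19 CPM in young and 22.4 ± 3.5 CPM in old, a log2 fold change of 0.76 ± 0.15 (SE; edgeR adjusted p = 0.0737). Its log2 fold change exceeded that of 91.7% of all genes. DESeq2 gave an adjusted p of 0.000724, and the fold was below its threshold for a call.

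The other slingshot genes did not share that pattern of values. Ssh1 (ENSRNOG00000000695) had 70.7, 64.0 and 66.0 CPM in young and 62.9, 65.8 and 57.9 CPM in old, a log2 fold change of -0.11 ± 0.09 (SE; edgeR adjusted p = 0.508). Ssh3 (ENSRNOG00000018878) had 40.7, 44.1 and 38.6 CPM in young and 32.2, 45.6 and 51.8 CPM in old. Its old libraries spanned the whole young range and beyond, with a log2 fold change of 0.07 ± 0.18 (SE; edgeR adjusted p = 0.833), and without old replicate 3 the value was -0.08. The counts of the 3 slingshot genes together were 2.12, 2.00 and 1.71 times those of the LIM kinases in young and 1.71, 1.92 and 1.80 times in old. That ratio overlapped between the ages (log2 difference -0.10, exact permutation test p = 0.4, adjusted p = 0.467).

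The profilins differed from each other. Pfn1 (ENSRNOG00000003975), the profilin found in nearly all cells, had 412, 363 and 438 CPM in young and 363, 234 and 239 CPM in old. Old replicate 1 (362.8 CPM) was level with young replicate 2 (362.7 CPM), so the groups touched, while the other old libraries were well below. The log2 fold change was -0.54 ± 0.20 (SE; adjusted p = 0.188 in edgeR and 0.0914 in DESeq2). Pfn2 (ENSRNOG00000017427), the form best known from neurons, had 62.6, 75.3 and 85.2 CPM in young and 87.7, 68.8 and 85.5 CPM in old, a log2 fold change of 0.12 ± 0.15 (SE; edgeR adjusted p = 0.657). The ratio of Pfn2 to Pfn1 counts was 0.152, 0.207 and 0.194 in young and 0.242, 0.294 and 0.357 in old. All old ratios were above the young ones, by 1.61-fold on average (exact permutation test p = 0.1, adjusted p = 0.14).

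**Figure D2:**
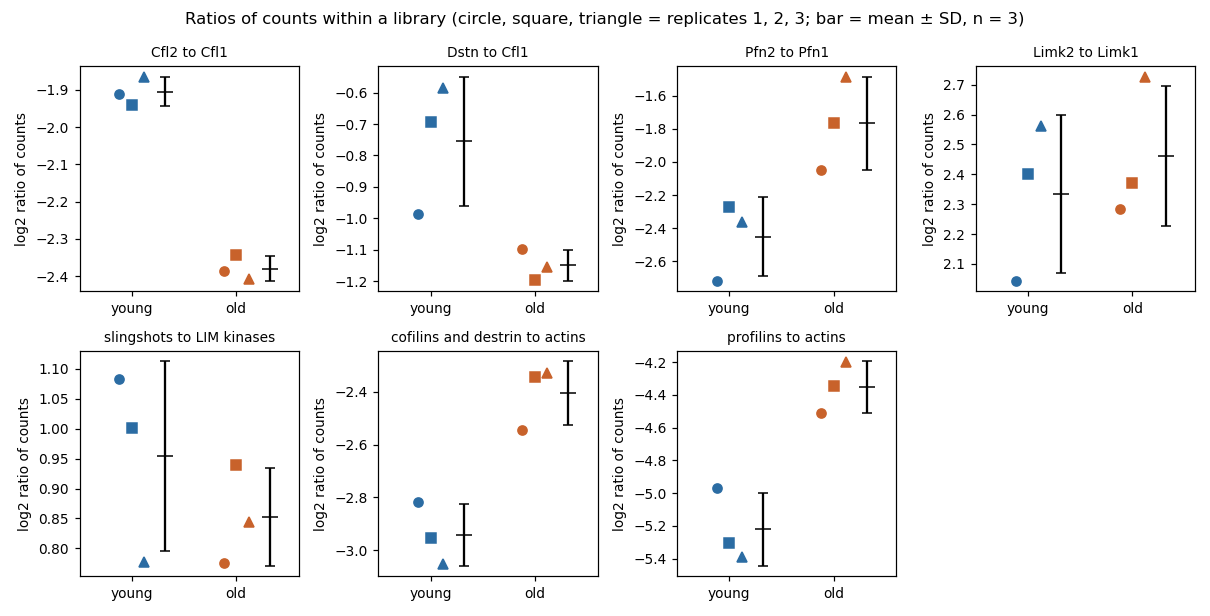
Log2 ratios of counts within each library for the 7 pairs of genes or families, young in blue and old in orange, with the replicate number as symbol and the mean ± SD (n = 3) as a black bar; each panel has its own axis. The ratios of Cfl2 and Dstn to Cfl1 lie lower in every old library, those of Pfn2 to Pfn1 and of both families to actin lie higher, and those among kinases and phosphatases overlap.

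Actin is the substrate of both families, and its summed RNA differed more between the ages than theirs did. The 5 actin isoform genes in the table (Acta1, Acta2, Actb, Actg1 and Actg2) summed to 14863, 17347 and 21937 CPM in young and 10280, 6164 and 5964 CPM in old. Within the sum, the smooth muscle isoform Acta2 had a log2 fold change of -2.27, so the ratios to actin carry its large difference. The non-muscle isoforms Actb and Actg1 had -0.81 and -0.64, smaller differences than those of Cfl2 (-1.04) and Dstn (-0.97). They were larger than those of Cfl1 (-0.57) and Pfn1 (-0.54). Ratios to the non-muscle isoforms alone were not computed. Counts of Cfl1, Cfl2 and Dstn together were 14.2%, 12.9% and 12.05% of the actin counts in young and 17.1%, 19.7% and 19.9% in old. The profilins were 3.19%, 2.52% and 2.38% of the actin counts in young and 4.38%, 4.91% and 5.45% in old. Relative to the actin sum, the old libraries were thus above all young ones for both families. The difference was 1.45-fold for cofilins and destrin and 1.83-fold for profilins (exact permutation test p = 0.1 and adjusted p = 0.14 each). Actin isoforms share long stretches of sequence, so reads can be exchanged among them, which a sum over the isoforms is less open to than any isoform alone.

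The rest of the pathway was taken from 4 lists of genes chosen for their roles. None of these 52 genes passed edgeR's thresholds, which 0.00691% of all genes passed. Of all 14475 genes, 6941 had lower and 7534 higher values in old, to be read beside the counts of lower and higher genes in each list. Of 14 kinases and GTPases upstream of cofilin, 13 had lower and 1 a higher mean in old (median log2 fold change -0.20), and 4 had an unadjusted p under 0.05, all of them lower, where 22.6% of all genes reached that p and 11.5% did so as lower. Rock2, a kinase that activates LIM kinases, had 794, 780 and 915 CPM in young and 492, 355 and 356 CPM in old. Its libraries were separated by age, with a log2 fold change of -1.05 ± 0.17 (SE; edgeR adjusted p = 0.0600), and DESeq2 called it. Rhoc, a small GTPase, Pak1, a kinase activated by Rac and Cdc42, and Rock1 had log2 fold changes of -0.57, -0.66 and -0.59 (adjusted p = 0.0924, 0.134 and 0.203 from edgeR). The kinases Tesk1 and Tesk2, which can also phosphorylate cofilin, had log2 fold changes of -0.09 and -0.01 and are named here after their values were seen.

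Other proteins work beside cofilin on the filament. Of 15 such genes, 11 had lower and 4 higher means in old (median log2 fold change -0.15), and 4, again all lower, had an unadjusted p under 0.05 (22.6% of all genes, 11.5% lower). Coro1c, a coronin that binds filaments and helps recruit cofilin, had 362, 404 and 544 CPM in young and 285, 182 and 189 CPM in old, a log2 fold change of -0.997 ± 0.236 (SE; edgeR adjusted p = 0.101). Wdr1, which speeds severing by cofilin, and Cap1, which recycles cofilin-bound monomers, had log2 fold changes of -0.71 and -0.44 (adjusted p = 0.153 and 0.187 from edgeR). Gmfg, a relative of cofilin that removes filament branches, was at -0.52 (adjusted p = 0.192 from edgeR). All 3 had old libraries below the young ones, as had 14.7% of all genes. The cofilin phosphatase Pdxp, or chronophin, had at most 3.77 CPM in any library and a log2 fold change of 0.26, and was named after its values were seen.

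Among 15 formins and Ena/VASP proteins, which take actin from profilin, 12 had lower and 3 higher means in old (median log2 fold change -0.27). Unadjusted p under 0.05 was reached by 3 lower genes and 1 higher one, beside 11.5% of all genes as lower and 11.2% as higher. Fmnl2, a formin of protrusions, was the higher one, at 37.8 ± 5.91 CPM (mean ± SD, n = 3) in young cells and 63.0 ± 14.8 CPM (n = 3) in old cells, a log2 fold change of 0.74 ± 0.21 (SE; edgeR adjusted p = 0.127). Vasp and Enah, which elongate filaments at adhesions, had log2 fold changes of -0.43 and -0.80 (adjusted p = 0.143 and 0.178 from edgeR). Diaph3, a formin, had 133, 112 and 185 CPM in young and 96.3, 33.1 and 19.4 CPM in old, the same order of old libraries as in the proliferation markers. Its log2 fold change of -1.53 had a standard error of 0.59 (edgeR adjusted p = 0.199), and the value was -2.45 when old replicate 1 was left out.

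Of 8 monomer-binding, severing and capping genes, 6 had lower and 2 higher means in old (median log2 fold change -0.14), and 1 had an unadjusted p under 0.05, where 22.6% of all genes did. That gene was Tmsb4x, thymosin β4, which competes with profilin for actin monomers. It had 2798, 3337 and 3405 CPM in young and 2161, 1180 and 1746 CPM in old, a log2 fold change of -0.91 ± 0.25 (SE; edgeR adjusted p = 0.125). The capping protein genes Capza1 and Capza2 and the severing protein gene Gsn (gelsolin) had log2 fold changes of -0.17, -0.20 and -0.24 with adjusted p of at least 0.346 from edgeR.

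**Figure D3:**
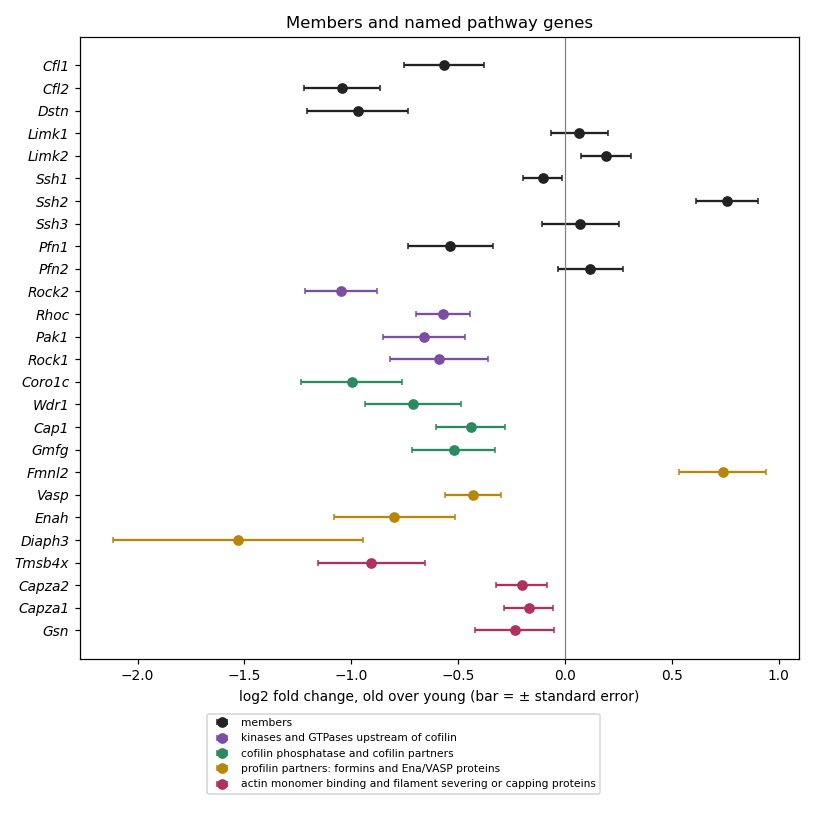
Log2 fold change of old over young with its standard error from edgeR for the 10 genes (black) and the 4 genes with the smallest p of each pathway list (colors). Cfl2, Dstn, Rock2 and Coro1c lie together near -1, Ssh2 and Fmnl2 lie at 0.76 and 0.74, and no gene shown passed the adjusted threshold.

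The gene whose profile over the 6 libraries was nearest to each member was sought among 8558 other named genes with a mean of at least 10 CPM. Likeness was measured as the root mean square difference of log2 CPM after each gene was centered on its own mean. For Cfl2 the nearest gene was Rock2, at 0.04, where the log2 CPM of Cfl2 itself had an SD of 0.62 over the 6 libraries. The nearest to Dstn was Coro1c, at 0.05 (SD of Dstn 0.61). Both nearest genes were also in the pathway lists. Cfl1 was nearest to Rapgef6 (0.04), Pfn1 to Dynll1 (0.04), Ssh2 to Vwa5a (0.08) and Pfn2 to Sgce (0.06). Limk1 was nearest to Rexo4, Limk2 to COX3, Ssh1 to Stoml2 and Ssh3 to Mink1, all at about 0.03 or less, where the genes themselves varied little, with SDs from 0.09 to 0.23. The measure describes these 6 libraries and carries no test.

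**Figure D4:**
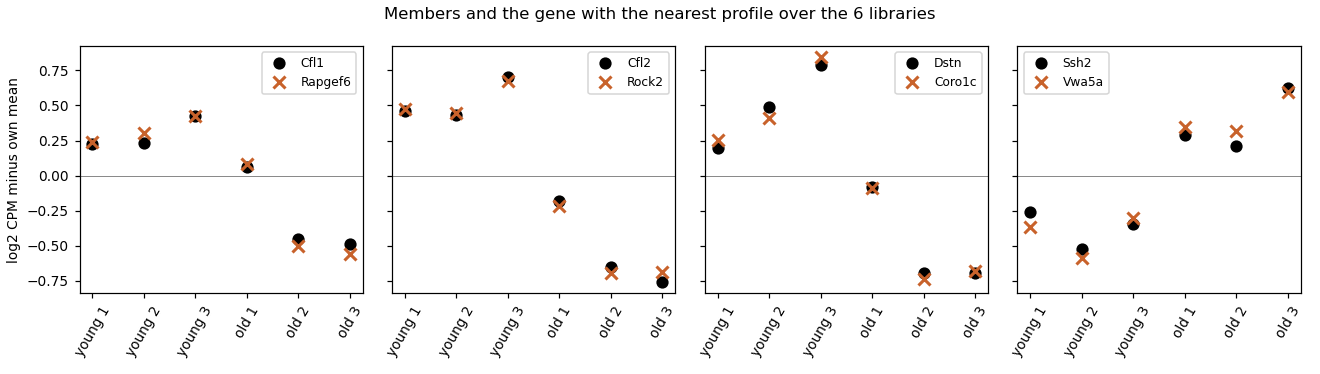
Log2 CPM of Cfl1, Cfl2, Dstn and Ssh2 in each library minus the mean of the gene over the 6 libraries (black circles), with the gene of nearest profile (orange crosses). In the first 3 panels old replicate 1 lies between the young libraries and the other old libraries, and for Ssh2 it lies with the old libraries.

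How many of the 10 genes passed edgeR's test depended on old replicate 1. Without that library edgeR called 2 of the 10, Cfl2 (log2 fold change -1.24, adjusted p = 0.0262) and Dstn (-1.20, adjusted p = 0.0334), where it called 5.06% of all genes. Cfl1 (-0.77, adjusted p = 0.0330), Pfn1 (-0.77, adjusted p = 0.0313) and Ssh2 (0.81, adjusted p = 0.0451) then also had an edgeR adjusted p under 0.05, as 9.53% of all genes did, with folds below the threshold. The same library had proliferation markers at 505 CPM, within the range of the young libraries, where the other old ones had at most 177 CPM, and its summed VSM markers, at 5562 CPM, were the highest of the old group. The part of these markers in the differences was not tested. When another library was omitted instead, 0 of the 10 were called by edgeR, which then called 0 to 5 of all 14475 genes. Over all 6 fits with a library omitted, the one without old replicate 1 included, log2 fold changes lay between -1.24 and -0.93 for Cfl2, -1.20 and -0.81 for Dstn, -0.77 and -0.47 for Cfl1, -0.77 and -0.43 for Pfn1, and 0.62 and 0.84 for Ssh2.

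**Figure D5:**
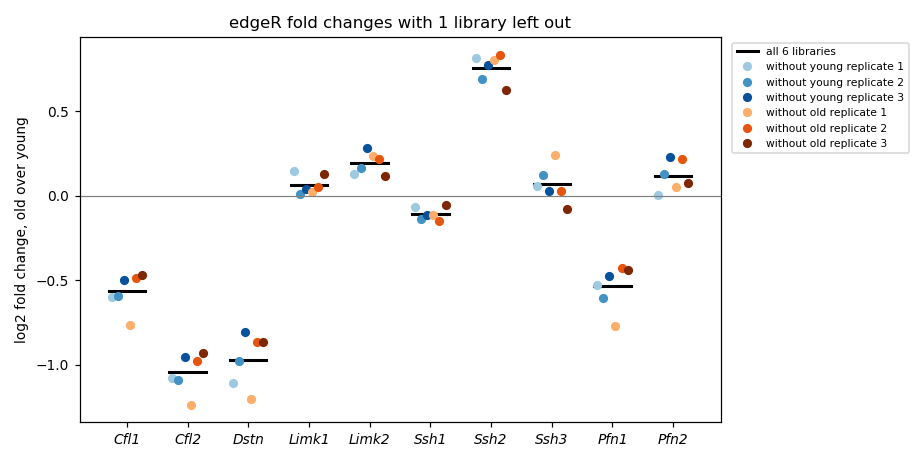
Log2 fold change of old over young from edgeR for each gene from all 6 libraries (black line) and after omission of each library (points). Leaving out old replicate 1 gives the lowest value for Cfl1, Cfl2, Dstn and Pfn1, and Ssh3 is the gene whose value crosses 0.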

How the data were processed

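Polyadenylated RNA of 3 young and 3 old VSM cell cultures was sequenced as stranded libraries. The authors deposited raw counts per gene, whole numbers without normalization, after trimming (Cutadapt 3.5 through Trim Galore 0.6.7), STAR 2.7.10b alignment to Rnor 6.0 and featureCounts (Subread 2.0.8). The paper names RefSeq gene models, but the genes of the counts carry Ensembl identifiers, so the annotation behind the counts is uncertain. Neither the strand setting nor the handling of multi-mapping reads is stated, so overlapping genes and near-identical copies are uncertain. The table had been filtered (10 or more counts in 3 or more libraries for each gene). Of the counts from 1 to 19, 68.7% to 71.1% per library were even, as counting both mates of a pair would leave. The p-values set the difference between the ages against the spread between these cultures.

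The members and gene lists were chosen by role, but with earlier results of these data known. Old was compared with young in R 4.3.3 with edgeR 4.0.16 (TMM, quasi-likelihood F test, no covariates) on all 14475 genes. Standard errors (SE) are |log2 fold change| / √F. DESeq2 1.42.0 (the study used DESeq2 1.46.0) and limma-voom (limma 3.58.1) were alternatives, beside other filters, RLE or no scaling, the replicate number as a block and each library left out. Ratios were tested exactly with SciPy 1.17.1. The scripts were tested on simulated data. All members were named, with the 4 genes of smallest p per pathway list, 4 VSM markers and the nearest gene of each member. Levels per gene length were planned but not computed, because the reference used here gives gene spans and not exon lengths. No library repeated another: the chi-square per gene within a group was at least 67.1.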

Additional observations from a re-analysis of the deposited data

How the results depend on the processing

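The log2 fold changes of Cfl1, Cfl2, Dstn, Pfn1, Ssh1, Ssh2, Limk1 and Limk2 kept their direction under the 19 alternatives run. With each library left out in turn, Ssh3 ranged from -0.0802 (without old replicate 3) to 0.244 in edgeR. In DESeq2 it was -0.0893 without old replicate 3, and Pfn2 was -0.00191 without young replicate 1. With all libraries, edgeR called 0 of the 10 genes under TMM, RLE and no scaling and under both filters, limma-voom called 0 and DESeq2 called 1 (Cfl2). With each library left out in turn edgeR called 0 to 2 and DESeq2 0 to 2. Over all 14475 genes these fits called 0 to 732 in edgeR and 551 to 1377 in DESeq2. The 2 calls of edgeR came without old replicate 1, the fit with 732 calls over all genes, and DESeq2 had its 1377 without the same library. Cfl2 was not called by DESeq2 once old replicate 2, old replicate 3 or young replicate 3 had been omitted, where its log2 fold change was between -0.98 and -0.94 and its adjusted p at most 0.00200. At an adjusted p under 0.05 without a fold threshold, edgeR gave 0 genes and DESeq2 4 (12.5% of the genes it tested). With each library left out these were 0 to 5 and 3 to 5. The 5 of edgeR came without old replicate 1, where 9.53% of all genes met that rule. For the other fits with a library left out, the share of all genes was not computed. The number at an unadjusted p under 0.05 was 3 to 5 in edgeR with a library left out, and 3 without old replicate 2 or old replicate 3. The share of all genes at that p was computed only with all libraries. The number with separate groups was 5 with no scaling, where Pfn1 also separated and 28.7% of all genes did. With a library left out it was 4 to 6, while the share of all genes rose to 52.6% without old replicate 1 and to between 36.2% and 38.7% without any other library. Of the 7 ratios, 6 kept their direction under each alternative run, and Limk2 to Limk1 ranged from -0.02 to 0.24 with a library left out. The count at an adjusted p under 0.05 without a fold threshold and the DESeq2 fits with a library left out were chosen after seeing the data.

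The replicate numbers are shared by the labels of both ages. The deviations of same-numbered libraries from their group means correlated at 0.06, 0.31 and 0.29 across 12257 genes. Young replicates 2 and 3 correlated best with the old library of their own number, and young replicate 1 with old replicate 2 (0.35). These values do not settle whether the numbers mark pairs, and the main fit did not use them. With the replicate block edgeR called 0 of the 10 genes and 1 of all genes. Of the 10, 5 had an unadjusted p under 0.05, a rule whose share over all genes was not computed for this fit. The median log2 fold change was -0.03. The lowest count of the 10 genes was 491, and 3 cultures per age limit the precision.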
